A study of Mus musculus with 8 samples.

Results

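The transcripts of 8 genes of tight and gap junctions were followed in SV-LECs, a mouse line of lymphatic endothelial cells that were isolated from the adventitia of the mesentery and immortalized with SV40. They were the claudins Cldn1, Cldn5 and Cldn12, occludin (Ocln), the scaffold gene Tjp1 and the connexins Gja1, Gja4 and Gjc1, chosen by symbol as 8 of the 55471 genes of the count table. Each symbol was found in the table. SV-LECs were left untreated in 4 samples and received 10 ng/ml TGFβ1 for 72 h in another 4, and the comparison asks which mRNAs the exposure to TGFβ1 changed. All 8 libraries came from this single immortalized line, and the study's methods call the 4 samples of a group technical replicates, so errors and p-values cover the spread between such samples and not that between independent cultures.

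Tight junctions seal the space between neighbouring cells. Claudins form the strands of the seal, occludin and the JAM proteins lie in the same membranes, and scaffold proteins such as the product of Tjp1 tie the strands to the actin cytoskeleton. Gap junctions are channels built of connexins that join the cytoplasm of adjacent cells and let ions and small metabolites pass. In the lymphatic endothelium claudin and connexin proteins lie at the borders between cells, where they take part in barrier function and in the development of valves.

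After TGFβ1 the SV-LECs held less Gja1, Gjc1 and Cldn12 mRNA and more Tjp1 mRNA. Gja1 fell to 0.606-fold and Gjc1 to 0.578-fold of the untreated level, Cldn12 fell to 0.822-fold, and Tjp1 rose to 1.24-fold, and in each case the 4 treated libraries lay apart from the 4 untreated ones. The remaining genes had few reads. Cldn1 had 6 to 19 reads in a library and did not pass the test, while Cldn5, Ocln and Gja4 had too few reads to enter it. Of the 8 genes, 3 were thus lower, 1 was higher, 1 did not pass and 3 were not tested. Among all 13818 genes tested, 75.6% were called at an FDR under 0.05 (likelihood ratio test of edgeR, p-values adjusted by Benjamini-Hochberg), 37.6% as higher and 38.0% as lower, so a call by itself did not set a gene apart from the rest of the transcriptome. The share of all genes whose groups lay apart was not counted, so separation is not shown to set a gene apart either.

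Total counts were between 18952504 and 26386941 per library, and 3 reads in a library correspond to between 0.113 and 0.162 CPM, counts scaled to a common library size. The defining markers of the labelled cell type were absent or nearly so. Tie1, Erg and Ccl21a had no read in any library, Cdh5 and Prox1 had at most 2, Lyve1 at most 3 and Pecam1 between 1 and 5. Of 17 endothelial and lymphatic markers, 6 passed the filter on low counts, among them Pdpn at 342 ± 19.5 CPM in untreated and 313 ± 5.25 CPM in treated SV-LECs (SD, n = 4) and Flt4 at 21.6 ± 1.23 and 29.3 ± 0.407 CPM, and 9 had at most 3 reads in every library. The summed level of the 17 markers was 426 to 460 CPM in untreated and 507 to 517 CPM in treated libraries. The higher sum was mostly that of Eng, at 62.0 ± 3.69 and 142.7 ± 3.81 CPM. Of the 6 markers that passed the filter, 3 were called higher and 2 lower, beside 37.6% and 38.0% of all genes tested. Of the mesothelial markers, 6 of 6 were lower after TGFβ1, beside 38.0% of all genes tested. Their summed level was 1912 to 2149 CPM before and 790.4 to 904 CPM after. Among them, Krt19, also in the epithelial list, had overlapping groups (FDR 0.0310 by edgeR's likelihood ratio test). Upk3b went from 537 ± 45.0 to 84.0 ± 9.67 CPM and Msln from 344 ± 28.3 to 203 ± 9.90 CPM. Summed levels were 58.6 to 73.1 and 52.6 to 58.8 CPM for 13 epithelial markers, 208 to 232 and 154 to 170.3 CPM for 8 markers of fibroblasts and mural cells, and 6.02 to 8.25 and 16.2 to 18.6 CPM for 7 leukocyte markers. Of the epithelial markers, 5 were tested, of which 2 were called higher and 2 lower, beside 37.6% and 38.0% of all genes tested. The leukocyte sum was mostly that of Cd68, at 6.96 ± 0.863 and 15.9 ± 0.857 CPM, while Ptprc had at most 1 read in a library and Adgre1 had no read. Of the leukocyte markers, 2 were tested and 2 called higher, beside 37.6% of all genes tested. They were Cd68 and Csf1r, the latter at 0.278 ± 0.124 and 1.38 ± 0.348 CPM. The lower sum of the fibroblast and mural markers was that of Pdgfra, at 160.0 ± 10.5 and 57.8 ± 3.91 CPM. Of the 8, 6 were tested, of which 4 were called higher and 1 lower, beside 37.6% and 38.0% of all genes tested. Those called higher were Pdgfrb, Cspg4, Des and Myh11, with Des at 1.69 ± 0.258 and 7.15 ± 0.784 CPM. In bulk RNA, fewer cells of a type and less RNA per cell cannot be told apart, and the part of these shifts in the junction results was not tested.

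Gja1 encodes the most widely expressed connexin of the body. The gene (ENSMUSG00000050953) lies on the plus strand of GRCm38 chr10:56377330-56402513. Its mRNA was measured at 419, 432, 445 and 419 CPM in untreated libraries 1 to 4 and at 259, 262, 255 and 263 CPM in treated libraries 1 to 4. The treated libraries were all lower than the lowest untreated one and spread over a narrower range. The means were 429 ± 12.4 and 259.8 ± 3.50 CPM (SD, n = 4), a log2 fold change of -0.72 with a standard error of 0.0384 and an FDR of 2.65e-77 by edgeR's likelihood ratio test. Of all genes tested, 11.2% had a lower log2 fold change than Gja1.

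Gjc1, a connexin of the gamma group that is known from vascular and cardiac muscle, changed in parallel. The gene (ENSMUSG00000034520) lies on the minus strand of chr11:102799579-102819700. Its mRNA was measured at 59.0, 55.7, 57.3 and 55.3 CPM in the untreated libraries and at 32.1, 32.1, 34.0 and 33.0 CPM in the treated ones. Again no treated library reached the untreated range. The log2 fold change was -0.79 with a standard error of 0.0511 (edgeR's likelihood ratio test, FDR 1.44e-53), and 9.78% of all genes tested had a lower one.

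Gja4, a connexin known from arterial endothelium and lymphatic valves, was near the limit of detection. The gene (ENSMUSG00000050234) lies on the minus strand of chr4:127311421-127314039. Untreated libraries held 2, 2, 2 and 0 of its reads and treated libraries 2, 4, 6 and 7. Of 3 genes below the low-count filter, Gja4 was the only one whose groups did not overlap once library size was taken into account, and untreated libraries 1 to 3 and treated library 1 held the same number of reads. The summed reads of 6 and 19 gave a rate ratio of 3.35 with a 95% interval of 1.29 to 10.2 that covers counting error only. The two-sided exact permutation test gave p = 0.0286, the smallest that 4 against 4 libraries allow, and 0.0857 after Benjamini-Hochberg adjustment over these 3 genes. Without the filter, edgeR's likelihood ratio test called it higher at an FDR of 0.0156.

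Cldn12 encodes a claudin that, unlike most of the family, lacks the C-terminal motif that binds the scaffold proteins. The gene (ENSMUSG00000046798) lies on the minus strand of chr5:5489537-5514958. Its mRNA was measured at 125, 125, 127 and 133 CPM in the untreated libraries and at 111, 104, 104 and 101 CPM in the treated ones. The groups did not overlap, although the step between them was small. The means were 127 ± 3.62 and 105 ± 4.52 CPM, a log2 fold change of -0.28 with a standard error of 0.0456 (edgeR's likelihood ratio test, FDR 1.57e-09). The lower quartile of all genes tested was -0.36, so Cldn12 lay within the middle part of the transcriptome.

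Cldn1, a claudin typical of epithelia (ENSMUSG00000022512, minus strand of chr16:26356642-26371841), had 8, 17, 13 and 7 reads in the untreated libraries and 12, 19, 6 and 13 in the treated ones. The untreated range lay inside the treated one. The levels were 0.487 ± 0.138 and 0.593 ± 0.264 CPM and the log2 fold change was 0.24 with a standard error of 0.326 (edgeR's likelihood ratio test, FDR 0.502). The rate ratio of the summed reads was 1.17 with a 95% counting interval of 0.77 to 1.80. Cldn5, the main claudin of vascular and lymphatic endothelium (ENSMUSG00000041378, plus strand of chr16:18776847-18778262), had no read in any untreated library and 0, 0, 1 and 1 in the treated ones. Both groups were at or under 3 reads in every library, so no fold change is given. Ocln, which encodes a membrane protein of the junction strands (ENSMUSG00000021638, minus strand of chr13:100496507-100552718), had 5, 2, 10 and 4 reads without and 3, 3, 4 and 9 reads with TGFβ1. The treated range lay inside the untreated one, and the rate ratio was 0.957 with a 95% counting interval of 0.487 to 1.87. At this depth no change of Cldn1, Cldn5 or Ocln was detectable.

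Tjp1, which encodes a scaffold protein shared by tight and gap junctions, was the single one of the 8 genes called higher. The gene (ENSMUSG00000030516) lies on the minus strand of chr7:65296165-65527781. Its mRNA was measured at 178, 176, 182 and 188 CPM in the untreated libraries and at 224, 231, 218 and 220.3 CPM in the treated ones. Every treated library was above every untreated one. The means were 181 ± 5.67 and 224 ± 5.79 CPM, a log2 fold change of 0.31 with a standard error of 0.0408 (edgeR's likelihood ratio test, FDR 2.20e-13). The upper quartile of all genes tested was 0.42, above the value of Tjp1.

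**Figure D1:**
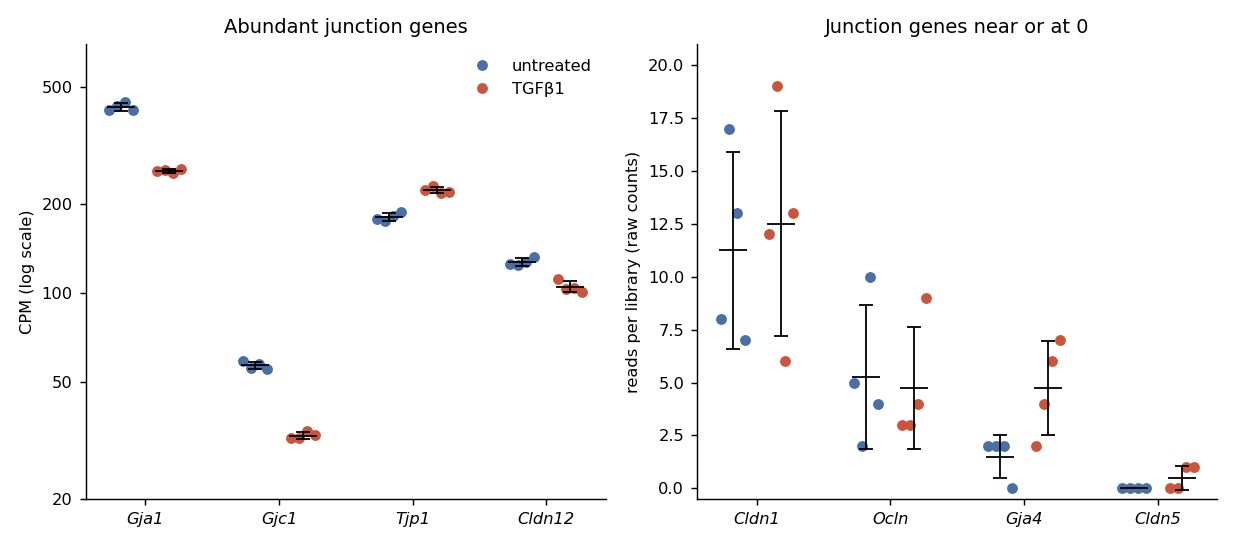
The left panel plots the CPM (log axis) of Gja1, Gjc1, Tjp1 and Cldn12, and the right panel the raw reads of Cldn1, Ocln, Gja4 and Cldn5, with a point for each untreated (blue) and TGFβ1-treated (red) library, a long bar for the mean and whiskers for 1 SD (n = 4). The groups lie apart for the 4 abundant genes, with Gja1 going from 429 to 259.8 CPM and Tjp1 from 181 to 224 CPM, while the low genes stay at or below 19 reads per library.

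**Figure D2:**
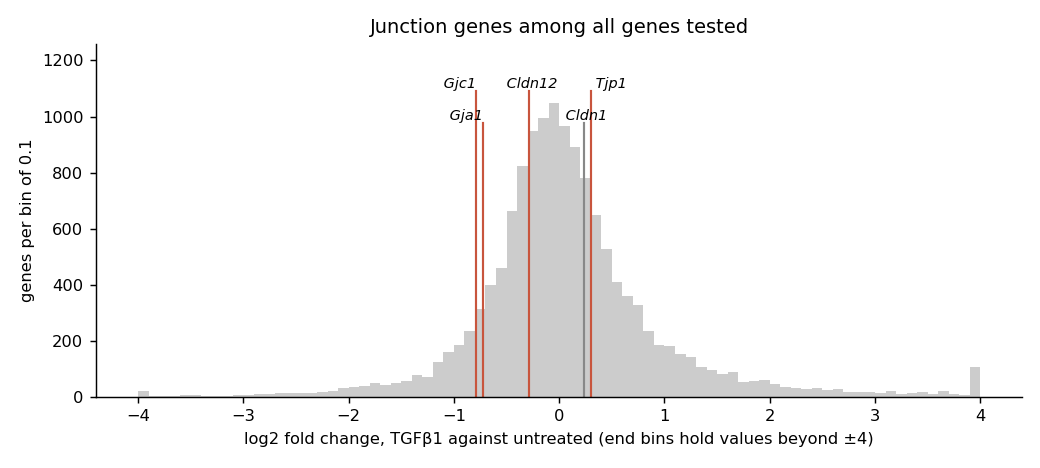
Grey bars count the 13818 genes tested in bins of log2 fold change (TGFβ1 against untreated), and lines mark the 5 tested genes of the 8, red where called and grey where not. Gjc1 and Gja1 lie on the lower flank at -0.79 and -0.72, and Cldn12 and Tjp1 lie between the quartiles of -0.36 and 0.42.

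No exon of the 8 genes overlaps an exon of another gene in GENCODE M21, and none of their transcripts shares a stretch of 75 bases, the read length, with a transcript of another gene. Levels of different genes were compared per length, as CPM divided by the kilobases of all annotated exons (RPKM). In untreated SV-LECs the order was Gja1 at 41.8 ± 1.21 RPKM, Cldn12 at 30.2 ± 0.856, Tjp1 at 23.2 ± 0.725 and Gjc1 at 11.4 ± 0.339 RPKM (SD, n = 4), with no overlap between neighbours. After TGFβ1 the order was Tjp1 at 28.6 ± 0.741 RPKM, Gja1 at 25.3 ± 0.341, Cldn12 at 24.8 ± 1.07 and Gjc1 at 6.55 ± 0.179 RPKM. There the ranges of Gja1 (24.9 to 25.6 RPKM) and Cldn12 (23.8 to 26.3 RPKM) overlapped, and these levels were not told apart. Cldn1, Ocln, Gja4 and Cldn5 had mean levels of at most 0.129 RPKM in either group. The place of Gja1 depended on the length used, since its annotated exons add up to 10257 bases and its longest transcript to 3889. With the longest transcript Gja1 was at 110.2 RPKM before and 66.8 RPKM after TGFβ1, and stood above Tjp1 at 25.7 and 31.7 RPKM in both groups.

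The proportions between the 4 abundant genes do not depend on the scaling of libraries and were compared as ratios of counts within a library, 6 pairs in all, a choice made after the levels had been seen. The number of Tjp1 reads per Gja1 read went from 0.423 ± 0.0201 to 0.861 ± 0.0182, and that of Tjp1 per Gjc1 read from 3.19 ± 0.163 to 6.83 ± 0.345 (SD, n = 4). Cldn12 reads per Tjp1 read went from 0.704 ± 0.00481 to 0.469 ± 0.0220. Both connexins thus fell relative to the claudin and to the scaffold gene. Cldn12 reads per Gja1 read went from 0.298 ± 0.0136 to 0.404 ± 0.0202, and per Gjc1 read from 2.25 ± 0.115 to 3.20 ± 0.194. Each of these 5 ratios separated the groups (two-sided exact permutation test, p = 0.0286, or 0.0343 after Benjamini-Hochberg adjustment over 6 ratios). For the ratios with Tjp1 this followed from the levels, since Tjp1 was higher and its partners lower in every treated library. For Cldn12 with Gja1 and Gjc1 it followed from the ranges of the levels, which had been seen before. The p-values of all 5 ratios therefore add no support. The ratio of Gja1 to Gjc1 reads was 7.55 ± 0.313 without and 7.93 ± 0.290 with TGFβ1, a difference of 0.379 between groups that overlapped (exact permutation test, p = 0.143, also 0.143 adjusted).

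Of 20 connexin genes in the table, 6 passed the low-count filter. Gja1 and Gjc1 were lower, 3 were higher and 1 did not pass. Among those called higher was Gjb5, a connexin of the beta group that is known from skin and other epithelia. Gjb5 was measured at 12.2, 10.3, 11.6 and 14.0 CPM in the untreated libraries and at 21.5, 23.1, 25.0 and 23.2 CPM in the treated ones. No treated library overlapped the untreated ones, and the log2 fold change was 0.95 with a standard error of 0.09 (edgeR's likelihood ratio test, FDR 1.23e-25). Panx1, a membrane channel related to the gap junction proteins of invertebrates, went from 12.5 ± 0.858 to 29.5 ± 1.12 CPM (log2 fold change 1.23, edgeR's likelihood ratio test, FDR 6.27e-73). Over connexins and pannexins, 7 of 23 genes were tested, of which 4 were higher and 2 lower. The higher genes were 57.1% of those tested and the lower ones 28.6%, against 37.6% and 38.0% of all genes.

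The share of each connexin in the summed RPKM of all connexins was taken within each library. Gja1 held 63.1, 65.7, 64.6 and 63.1% of the connexin signal in the untreated libraries and 49.2, 49.1, 47.3 and 48.0% in the treated ones. Gja1 had the largest share of all connexins in each of the 8 libraries. The share of Gjc1 fell from 17.4 ± 0.548% to 12.5 ± 0.265% (SD, n = 4). For Gja1 and Gjc1 the two-sided exact permutation test gave p = 0.0286, or 0.0429 after Benjamini-Hochberg adjustment over the 6 shares tested in both families. The shares are built from levels that already lay apart, with Gja1 and Gjc1 lower and Gjb5 higher in every treated library. These p-values therefore add no support. Gja1 and Gjc1 together held 81.6 ± 1.16% of the signal before and 60.9 ± 0.724% after TGFβ1. The share of Gjb5 was 10.7 ± 1.39% and 25.8 ± 1.35%. The sizes of these shares depended on the length used. With the longest transcript the share of Gja1 went from 79.3 to 68.8%, that of Gja1 and Gjc1 together from 91.3 to 78.7% and that of Gjb5 from 5.04 to 13.9%. With no length scaling they went from 84.6 to 79.0%, from 95.8 to 89.0% and from 2.38 to 7.06%. The groups of Gja1, Gjc1 and Gjb5 lay apart in the same direction with each length. The share of Gja4, 0.0588 ± 0.0400% and 0.245 ± 0.0930%, had the same exact p and adjusted p as Gja1, but it rests on the 6 and 19 reads above, whose level did not pass after adjustment, and its denominator held less Gja1 and Gjc1 after TGFβ1. When the pool was restricted to Gja1, Gja4 and Gjc1, the share of Gja1 differed by 0.55 percentage points and the groups overlapped, so the lower share of Gja1 was seen against the connexins outside the 8 genes and not against Gjc1.

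**Figure D3:**
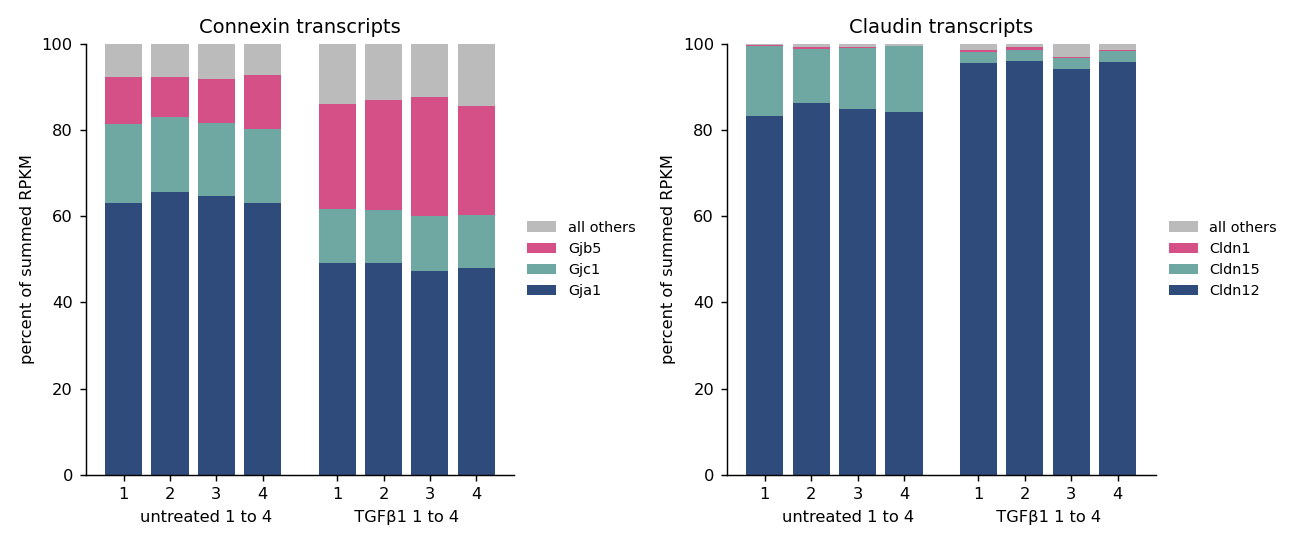
Stacked bars give the percent of the summed RPKM of all connexins (left) and all claudins (right) held by the named genes, with all others in grey, in each of the 4 untreated and 4 TGFβ1-treated libraries. Gja1 goes from 64.1% to 48.4% and Gjb5 from 10.7% to 25.8% on average, while Cldn12 goes from 84.7% to 95.4% and Cldn15 from 14.5% to 2.48%.

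Claudins were scarce in SV-LECs. Of 23 claudin genes in the table, 3 passed the low-count filter, 18 had at most 3 reads in every library and 8 had none at all. Beside Cldn12 and Cldn1 the filter was passed by Cldn15, which forms cation-selective pores in the intestine. Cldn15 was measured at 12.3, 9.09, 10.6 and 12.1 CPM in the untreated libraries and at 1.51, 1.31, 1.33 and 1.32 CPM in the treated ones. The log2 fold change was -3.00 with a standard error of 0.173 (edgeR's likelihood ratio test, FDR 7.66e-80). Cldn12 held 83.2, 86.3, 85.0 and 84.1% of the summed claudin RPKM in the untreated libraries and 95.6, 96.1, 94.3 and 95.8% in the treated ones. Its share thus rose while its level fell (exact permutation test of the share, p = 0.0286, or 0.0429 adjusted over 6 shares), and with no length scaling it went from 91.5 to 97.5%. The rise followed from the levels, since Cldn15 fell far more than Cldn12 in every treated library, so the p-value adds no support. Cldn15 held 14.5 ± 1.65% before and 2.48 ± 0.0896% after TGFβ1. The shares of Cldn1 (0.284 ± 0.0889% and 0.473 ± 0.214%, exact permutation p = 0.114, adjusted 0.137) and of Cldn5 (0% and 0.0608 ± 0.0708%, p = 0.429, adjusted 0.429) overlapped between groups.

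Among 14 other membrane proteins of tight junctions, Ocln included, 7 were tested. Of these 7, 4 were higher and 3 lower, beside 37.6% and 38.0% of all genes tested. Those called higher were the JAM genes, which encode adhesion proteins of the immunoglobulin family, and the related Esam. Jam2 was at 2.39 ± 0.374 CPM in untreated and 7.78 ± 0.623 CPM in treated SV-LECs (log2 fold change 1.69), F11r at 186 ± 10.0 and 226 ± 6.94 CPM (0.28), Esam at 2.85 ± 0.239 and 3.77 ± 0.414 CPM (0.39) and Jam3 at 22.5 ± 0.568 and 25.1 ± 1.05 CPM (0.16). The call of Jam3 was lost when libraries were scaled by total counts (edgeR's likelihood ratio test, FDR 0.139), and 36.2% of its exon bases overlap a gene on the other strand, whose reads cannot be told apart if strand was not used in counting. Those called lower were Cxadr, the receptor of coxsackie and adenoviruses, and Lsr and Ildr2, of the angulin group found where 3 cells meet. Cxadr was at 425, 408, 398 and 431 CPM without and 163, 152, 169.8 and 169 CPM with TGFβ1, and Ildr2 at 113, 113, 108 and 105 CPM without and 34.0, 34.1, 35.8 and 37.2 CPM with it. Neither gene had a treated library in the untreated range, and the log2 fold changes were -1.35 and -1.64. Lsr was at 19.3 ± 0.747 and 11.7 ± 1.91 CPM (-0.72). Genes on the other strand overlap 44.7% of the exon bases of Lsr (971 bases), 9.46% of those of Cxadr (700 bases) and 911 exon bases of Ildr2, so the same limit as for Jam3 holds for Lsr most of all.

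Of the genes of scaffold and polarity proteins, 23 of 23 in the table passed the low-count filter. Of these, 6 were higher, 16 were lower and Prkcz did not pass (log2 fold change 0.06, edgeR's likelihood ratio test, FDR 0.636). Tjp3, of the same family as Tjp1, went from 0.939 ± 0.0838 to 1.58 ± 0.487 CPM (log2 fold change 0.74, FDR 0.00199 by edgeR's likelihood ratio test). Cingulin (Cgn) and its paralogue Cgnl1, which link junctions to actin and myosin, went in opposite directions. Cgn was at 36.0 ± 1.46 and 21.7 ± 1.48 CPM (log2 fold change -0.72), and Cgnl1 at 20.4 ± 0.873 and 55.7 ± 1.13 CPM (1.46). The polarity genes Pard6a and Pard6b had log2 fold changes of -0.73 and -1.31, and Pard6g, of the same family, had one of 1.16. Pard3 and Pard3b were at -0.27 and -1.39, and the polarity kinase gene Prkci was at -0.43. The angiomotin genes were split as well, with Amotl1 at 0.60, Amotl2 at -0.38 and Amot at -0.15. The call of Amot was lost in 7 of the 17 alternative settings, among them the removal of untreated library 3 or 4 or of treated library 3 or 4, with FDRs of 0.0529 to 0.101 (edgeR's likelihood ratio test) in those 4. Magi2 was at 0.43, and further genes called lower were Ybx3 (-0.62), Sympk (-0.37), Patj (-0.36), Afdn (-0.33), Magi3 (-0.22), Pals1 (-0.19) and Mpdz (-0.14). Over the 3 tight junction lists, 33 of 60 genes were tested, 10 were higher and 21 lower, and the median log2 fold change was -0.27, beside -0.01 over all genes tested. The lower genes were 63.6% of those tested and the higher ones 30.3%, against 38.0% and 37.6% of all genes.

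**Figure D4:**
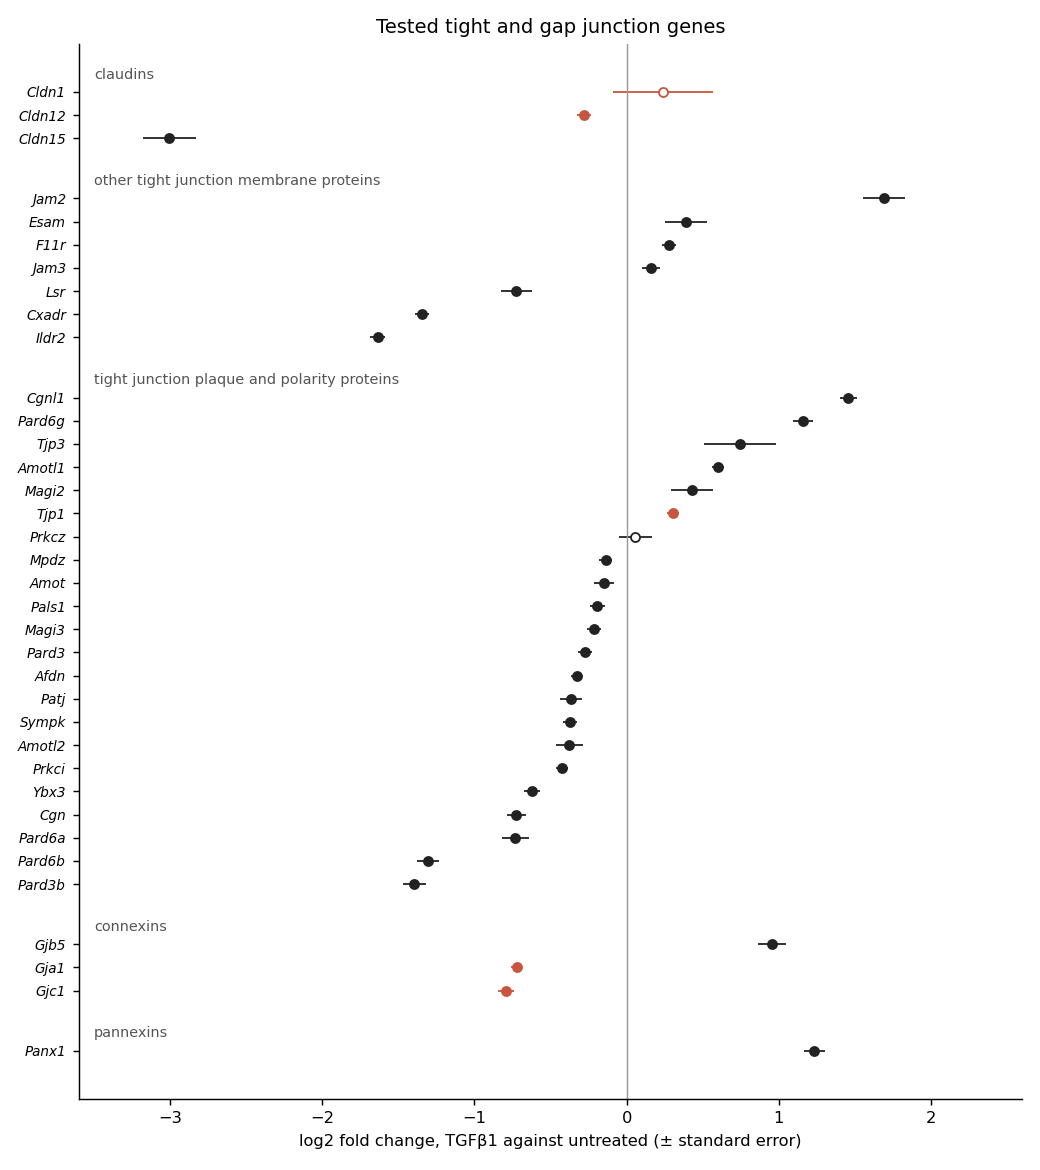
Points give the log2 fold change (TGFβ1 against untreated) of 36 of the 40 tested genes of tight and gap junctions, by list, with bars for the standard error, red for genes among the 8 and black for others, filled where called at an FDR under 0.05 and open where not. Values run from -3.00 for Cldn15 to 1.69 for Jam2, and each list except the claudins and pannexins holds genes called in both directions.

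For each tested gene of the 8, the gene with the most similar profile over the 8 libraries was sought by the root mean square difference of log2 CPM after centring on the untreated mean. Tjp1 was nearest to Galnt11 (0.0174), Cldn12 to Usp37 (0.0262), Gja1 to Scara3 (0.0265) and Gjc1 to Sars (0.0270). Cldn1 had no close partner, with Zfp94 nearest at 0.253, but at 6 to 19 reads per library counting noise widens this distance. None of these partners is in the junction lists, which hold only 40 of the 13818 genes tested.

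Promoter sequences are given for 3 of the genes that changed and for Cldn5, nearly silent here, as the upstream regions of abundant and silent genes of this set. RefSeq (GRCm38.p6) gave windows for 7 of the 8 genes, and those shown are the 250 bases before the start, 5′ to 3′ on the strand of the gene, with no annotated exon base inside. They lie at chr10:56377050-56377299 (Gja1, plus strand), chr5:5514977-5515226 (Cldn12, minus strand), chr7:65371245-65371494 (Tjp1, minus strand, an internal start of the gene) and chr16:18776597-18776846 (Cldn5, plus strand). Capitals mark matches on either strand to an E-box (CAGGTG or CACCTG), an AP-1 site (TGAGTCA or TGACTCA), the short Smad core (CAGAC or GTCTG), a GC box (GGGCGG or CCGCCC) or a TATAAA box.
Gja1: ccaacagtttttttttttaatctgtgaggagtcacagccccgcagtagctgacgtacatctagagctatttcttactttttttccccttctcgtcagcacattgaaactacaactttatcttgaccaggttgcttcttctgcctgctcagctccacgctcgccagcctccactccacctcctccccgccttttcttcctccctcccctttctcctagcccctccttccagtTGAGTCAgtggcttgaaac
Cldn12: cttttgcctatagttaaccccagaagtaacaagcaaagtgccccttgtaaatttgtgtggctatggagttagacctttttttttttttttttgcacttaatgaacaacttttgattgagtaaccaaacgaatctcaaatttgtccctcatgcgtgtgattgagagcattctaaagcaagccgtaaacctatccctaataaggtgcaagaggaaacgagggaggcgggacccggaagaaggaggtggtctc
Tjp1: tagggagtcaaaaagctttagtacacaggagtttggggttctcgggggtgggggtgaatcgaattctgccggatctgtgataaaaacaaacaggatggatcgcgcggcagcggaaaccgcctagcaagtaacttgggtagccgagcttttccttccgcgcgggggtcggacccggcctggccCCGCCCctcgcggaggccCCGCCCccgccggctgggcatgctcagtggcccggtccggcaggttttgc
Cldn5: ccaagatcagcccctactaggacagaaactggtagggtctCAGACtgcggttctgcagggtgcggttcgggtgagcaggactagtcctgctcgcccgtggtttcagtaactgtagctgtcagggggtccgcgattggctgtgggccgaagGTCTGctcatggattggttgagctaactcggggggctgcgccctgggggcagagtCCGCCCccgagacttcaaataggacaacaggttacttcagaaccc

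The Gja1 window held an AP-1 match that starts 19 bases before the start and no other motif, and 6 CpG dinucleotides. The Cldn12 window held no match and 6 CpG. The windows of its other RefSeq starts, which overlap each other and reach into exons, held the same single GC box, and 16 and 20 CpG. The Tjp1 window held GC boxes 68 and 50 bases before the start and 22 CpG. The Cldn5 window held Smad cores 210 and 100 bases and a GC box 45 bases before the start, and 12 CpG. Of the windows not shown, that of Gja4 held Smad cores 154 and 64 bases and a GC box 79 bases before the start. The only E-boxes lay in an Ocln window that reaches into an exon, 213 and 68 bases before its start. Windows of Cldn1 and Ocln held GC boxes as well. Among 32851 RefSeq windows of the same length, 4.46% held the AP-1 letters, 42.2% a Smad core, 32.7% a GC box and 17.2% an E-box. A TATAAA box on the strand of the gene was in 7.59%, and the median number of CpG was 6. These matches describe letters only and none was tested for binding.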

How the data were processed

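RNA of untreated and TGFβ1-treated SV-LECs (4 libraries per group) was sequenced from stranded poly(A) libraries as single 75-base reads. The authors deposited raw counts of reads per gene, not normalized; the submitters' processing notes name bcl2fastq 2.20.0.422, STAR 2.7.3a, featureCounts 1.5.1 and GRCm38. The annotation release and the use of strand in counting are not given in the sources used here. Groups were taken from the labels.

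The deposited counts were fitted with edgeR 4.0.16 under R 4.3.3, using filterByExpr, TMM normalization and glmFit with glmLRT, the study's tool, without a replicate block. The FDR (Benjamini-Hochberg, threshold 0.05) covers the 13818 genes that passed. CPM used normalized library sizes. RPKM used the summed exon lengths of GENCODE M21, which matched 55144 genes. Ratios and shares were compared by two-sided exact permutation tests over libraries. Intervals of rate ratios and the limit of 3 counts cover counting error only. No pair of libraries agreed within sampling noise (chi-square per degree of freedom 2.37 to 7.84), so each was counted once. On simulated data with known changes the likelihood ratio test called no gene with the wrong sign, but made more false calls than the nominal rate and more than the quasi-likelihood test. Quasi-likelihood and DESeq2 1.42.0 served among the alternatives. Figures were drawn with matplotlib 3.10.9.

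The 8 genes and the gene lists were chosen with earlier results of these data known. Genes of the lists that passed the filter are named, except 4 that count in the totals and are not reported here by name, markers are given by list with the defining ones named, and the most similar profile is named for each tested gene. One listed scaffold gene was not analysed here.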

Additional observations from a re-analysis of the deposited data

Results flagged for a closer look

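Among 100 groups of 4 libraries checked for a single distant value, 1 exceeded Dixon's 95% critical value for the gap to the nearest library divided by the range, while chance flags about 1 in 20 groups. For Cldn15 in treated SV-LECs the ratio was 0.930, since library 1 was at 1.51 CPM and the others between 1.31 and 1.33 CPM. The gap was small beside the difference between the groups. None of the 8 junction genes followed here was marked in this way.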

How the results depend on the processing

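The 5 tested genes of the 8 were refitted in 17 alternative settings, which gave 84 values, since Cldn1 did not pass the filter that asks for 1 CPM in 4 or more libraries. All 84 kept their side of the threshold. Log2 fold changes ranged from -0.79 to -0.71 for Gja1, from -0.86 to -0.78 for Gjc1, from -0.35 to -0.26 for Cldn12, from 0.24 to 0.32 for Tjp1 and from -0.05 to 0.45 for Cldn1, which is not called in any of them (FDR 0.207 to 0.893). Without the filter on low counts the number of the 8 genes called higher was 2, Gja4 being added. Over the 40 tested junction genes, 669 of 678 values kept their side and direction, 9 lost the call (Amot in 7 settings and Jam3 in 2), and none reversed. With pools of the followed genes only, the difference in share was 0.55 percentage points for Gja1 (exact permutation p = 0.314), -0.88 for Gjc1 (p = 0.114) and -0.22 for Cldn12 (p = 0.0857), against -15.8, -4.92 and 10.8 in the full families; such a pool leaves out the other connexins or Cldn15. With the longest transcript as length these differences were -10.5, -2.09 and 10.7 points, and with no length scaling -5.62, -1.25 and 6.03 (exact permutation p = 0.0286 for each). These p-values add no support beyond the levels, which already lay apart. With 1 library left out the differences were -16.1 to -15.3, -5.04 to -4.65 and 10.3 to 11.3 points, and the permutation test of 3 against 4 cannot go below 0.0571. Scaling by total counts moved the median log2 fold change of all genes to -0.07. The replicate numbers did not pair the libraries (correlations of same-numbered deviations -0.193 to -0.0336). With them as a replicate block the calls were 5075 higher and 5077 lower over all genes, against 5198 and 5251, and among the junction genes Amot was lost. Depth limits Cldn1, Cldn5, Ocln and Gja4, which had at most 19 reads in a library.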
